A study of Mus musculus with 8 samples.

Results

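Neutrophils from the blood of LPS-injected mice fell into a strongly and a weakly responding class, and the classes are described here gene by gene. The strong responders are the LPS-primed peripheral blood (PB) cells of batch 7 that the authors' clustering placed in cluster 2, and the weak responders are those it placed in cluster 1. There were 167 such cells of 1421 in the series, 84 strong and 83 weak. Plate 1 held 42 strong and 48 weak responders among 91 LPS-primed PB cells, and plate 2 held 42 and 35 among 86. Strong responders thus made up 46.2% of plate 1 (95% exact Clopper-Pearson interval 35.6 to 56.9) and 48.8% of plate 2 (37.9 to 59.9). The other 10 LPS-primed cells of batch 7 were in cluster 0. The intervals cover counting error only.

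The mice were 7- to 12-week-old males of the C57BL/6J background with no genetic change named for these groups. LPS-primed animals had received 0.5 mg/kg lipopolysaccharide intraperitoneally and PBS-primed animals PBS. The labels place the LPS samples at 4 h and the PBS samples at 0 h, whereas the study's methods describe preparation 4 h after either injection. Neutrophils were enriched with an immunomagnetic kit (EasySep), picked one by one with a mouth pipette and sequenced by SCRB-seq, which counts each captured transcript once through a unique molecular identifier (UMI). Every plate of batch 7 is 1 labelled sample. The plates of batch 6 match no labelled sample by name, so the labels give no dose or hour for them. Their cell names give tissue and treatment. The number of mice behind a plate is not given in the sources used here, so differences between plates may be technical only. PBS-primed PB cells of the same batch served as the background: 174 of 176 were in cluster 1 and 0 in cluster 2. In batch 6, 185 of 186 LPS-primed PB cells were in cluster 2, and 167 of 172 PBS-primed ones in cluster 1. LPS-primed cells were thus divided between these clusters on the plates of batch 7 and, but for 1 cell, not on those of batch 6, and batch and animal cannot be told apart.

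LPS is sensed through Toll-like receptor 4 and its co-receptor CD14. Its adaptor MyD88 leads to NF-κB and rapid cytokine and chemokine transcription, and its adaptor TRIF to type I interferon, which in turn induces antiviral genes through STAT factors bound at interferon-stimulated response elements. Neutrophils make their granule proteins mainly while they mature in the bone marrow, the secondary granule proteins (lactoferrin, cathelicidin, lipocalin) late in that sequence, and transcripts of these proteins are normally low in mature blood neutrophils.

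The classes differed in depth. The median cell held 86256 and 71939 UMIs in the strong responders of plates 1 and 2, and 42451 and 37073 in the weak responders. The authors' ERCC ratio, a fraction that relates the added spike-in RNA to each cell's reads, had medians of 0.453 and 0.400 in strong and 0.586 and 0.580 in weak responders. The denominator of this ratio is not given in the sources used here. Each cell was therefore thinned to 5000 UMIs, which no cell fell short of, before the UMIs of a class were summed within a plate and expressed as CPM, the gene's share of those UMIs. In a class of 42 cells 3 UMIs are then worth 14.3 CPM. Of the 91 and 86 barcodes used on the plates, 84 occurred on both. A barcode marks a different cell on each plate. For 41 of the 84 shared barcodes, the cells of both plates were of the same class. As the clusters were made from the expression of these same cells, differences between the classes are given as a description, without a test.

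Promoters are shown for 3 interferon-induced genes and 2 granule protein genes that were higher in strong responders. They are the RefSeq sequences from 250 bases before to 50 bases after the annotated start, read in the direction of the gene (GRCm38.p6). Capitals mark GAAANNGAA on either strand, the core of an interferon-stimulated response element (ISRE), or TTGCNNAA on either strand, a C/EBP motif. Rsad2 lies at chr12:26456403-26456702 on the minus strand, Ifit1 at chr19:34640639-34640938 on the plus strand, Cxcl10 at chr5:92348840-92349139 on the minus strand, Ngp at chr9:110419558-110419857 on the plus strand and Camp at chr9:109849407-109849706 on the minus strand.
Rsad2: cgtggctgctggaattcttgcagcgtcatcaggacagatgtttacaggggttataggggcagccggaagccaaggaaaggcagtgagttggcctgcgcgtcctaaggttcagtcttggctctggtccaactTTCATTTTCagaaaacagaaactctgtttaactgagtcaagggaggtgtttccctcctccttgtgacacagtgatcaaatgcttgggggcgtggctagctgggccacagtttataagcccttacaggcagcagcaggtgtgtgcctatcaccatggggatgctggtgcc
Ifit1: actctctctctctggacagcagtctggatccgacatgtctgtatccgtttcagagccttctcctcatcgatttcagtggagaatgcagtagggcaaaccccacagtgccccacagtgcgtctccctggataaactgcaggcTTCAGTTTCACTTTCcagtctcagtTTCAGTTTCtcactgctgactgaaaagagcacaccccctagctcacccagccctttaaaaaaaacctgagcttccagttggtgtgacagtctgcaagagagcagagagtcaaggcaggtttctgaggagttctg
Cxcl10: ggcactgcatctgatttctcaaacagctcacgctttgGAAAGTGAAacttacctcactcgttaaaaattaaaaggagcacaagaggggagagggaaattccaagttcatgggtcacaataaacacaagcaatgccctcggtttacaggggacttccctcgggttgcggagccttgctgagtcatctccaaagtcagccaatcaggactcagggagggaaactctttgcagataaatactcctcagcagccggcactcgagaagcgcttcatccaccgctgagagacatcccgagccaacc
Ngp: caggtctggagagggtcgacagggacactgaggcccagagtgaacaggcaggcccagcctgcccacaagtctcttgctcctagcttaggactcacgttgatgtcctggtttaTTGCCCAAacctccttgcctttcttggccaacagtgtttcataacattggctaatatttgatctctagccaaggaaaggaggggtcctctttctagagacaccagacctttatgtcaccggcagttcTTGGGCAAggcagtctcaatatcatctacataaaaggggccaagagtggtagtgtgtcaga
Camp: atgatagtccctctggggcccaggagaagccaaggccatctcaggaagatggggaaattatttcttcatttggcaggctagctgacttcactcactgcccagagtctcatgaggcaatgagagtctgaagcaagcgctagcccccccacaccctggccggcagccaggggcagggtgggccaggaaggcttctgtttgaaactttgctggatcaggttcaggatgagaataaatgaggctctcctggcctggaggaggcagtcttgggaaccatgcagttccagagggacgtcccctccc

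Rsad2 held 1 ISRE core in this window, Ifit1 held 3, of which the first 2 overlap, and Cxcl10 held 1, while Ngp held 0 ISRE cores and 2 C/EBP motifs and Camp held 0 of either. The windows of Sod2 and of Ifitm1, not shown, also held 0 of either. The ISRE core was present in 8.57% of the 27025 promoters of the table, in 10.2% of the 1938 promoters matched by symbol to genes compared between the classes, in 20% of the 150 promoters of genes higher in strong responders and in 7.78% of the 347 promoters of genes higher in weak responders. The C/EBP motif was present in 10.8% of all promoters, in 10.7% of those of genes higher in strong and in 9.51% of those of genes higher in weak responders. The STAT motif TTCNNNGAA was found in 8.47%, 10% and 5.76% of the same sets. These are matches of letters, and binding was not measured.

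Of 10970 genes, 2418 reached 10 thinned UMIs over both classes in each plate and were compared on log2(CPM + 10), a scale that understates the change of low genes. In both plates, 188 genes (7.78%) were at least 2-fold higher in strong responders and 432 (17.9%) at least 2-fold higher in weak responders. A further 93 genes differed at least 2-fold in opposite directions on the plates. The median gene was 0.46 lower on the log2 scale in strong responders. With TMM scaling, which moved that median to -0.04, the counts became 296 higher in strong and 232 higher in weak responders. Many of the genes rested on few cells: the 2 highest cells held over 50% of the class's UMIs in at least 1 plate for 73 of the 188 genes and for 294 of the 432. A second random thinning called 146 of the 188 and 305 of the 432 again, and sums without thinning called 115 and 282 of them. The genes named below were taken from those spread over more cells or from pathway lists.

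**Figure D1:**
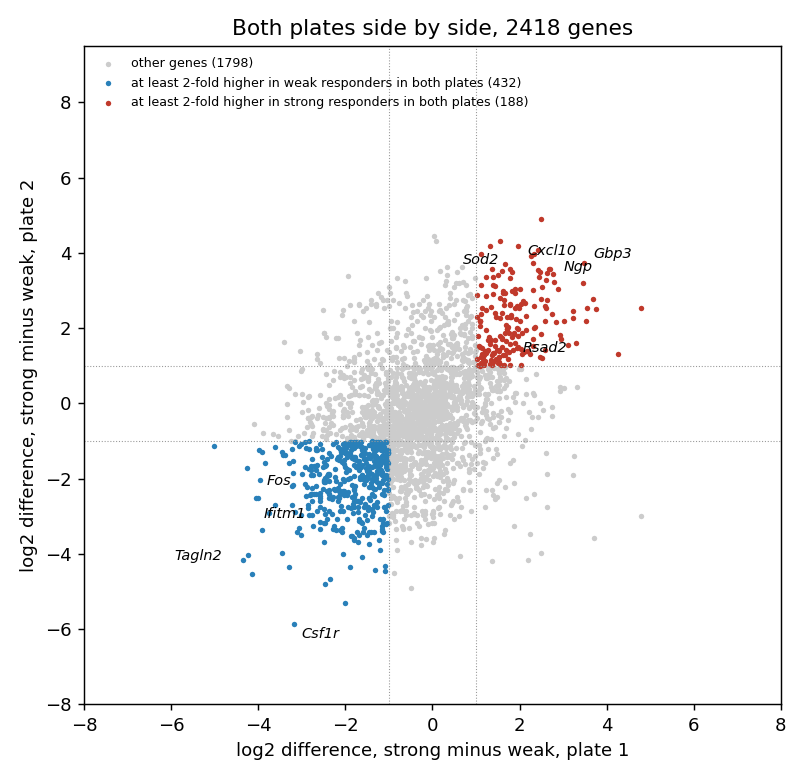
Each point is 1 of 2418 genes, with the log2 difference between strong and weak responders (log2(CPM + 10), strong minus weak) of plate 1 on the x axis and of plate 2 on the y axis; dotted lines mark 2-fold. The 188 genes higher in strong responders fill the upper right corner and the 432 higher in weak responders the lower left, while the grey points outside the cross of dotted lines in the other corners are the 93 genes with opposite directions.

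All 5 genes that mark the split were higher in strong responders in both plates. Rsad2, which encodes the antiviral enzyme viperin (NCBIM37, chromosome 12, 27127618 to 27141317), reached 7762 and 7171 CPM in strong responders, 2113 and 2000 CPM in weak responders and 511 and 267 CPM in PBS-primed cells. Ifit1, an inhibitor of the translation of viral RNA (chromosome 19, 34715361 to 34724499), reached 4148 and 4248, 1292 and 1149, and 160 and 165 CPM in the same order. The 3 classes did not overlap for either gene, although the PBS-primed plates differed for Rsad2. Rsad2 was thereby 1.85 ± 0.03 (SD, n = 2 plates) and Ifit1 1.78 ± 0.14 higher on the log2 scale in strong than in weak responders.

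Sod2, the mitochondrial superoxide dismutase (NCBIM37, chromosome 17, 13200705 to 13210985), was at 1457 and 1805 CPM in strong, 417 and 143 CPM in weak and 17.8 and 41.9 CPM in PBS-primed cells. Its difference between the classes was less even, 1.78 on plate 1 and 3.57 on plate 2. Camp, the cathelicidin of secondary granules (chromosome 9, 109749889 to 109751970), was at 3557 and 3595 CPM in strong, 800 and 709 CPM in weak and 37.8 and 30.2 CPM in PBS-primed cells. Ngp, neutrophilic granule protein (chromosome 9, 110322254 to 110325514), was at 8967 and 9248 CPM, 1308 and 851 CPM, and 66.7 and 95.3 CPM. Weak responders thus stood between strong responders and PBS-primed cells for all 5 genes, with no overlap of the plates.

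How this difference was spread over single cells was not alike. For Rsad2 all 42 strong responders of each plate held a UMI, with medians of 31 and 25 per 5000, against 45 of 48 and 32 of 35 weak responders with medians of 3 and 4, and 30 of 90 and 27 of 86 PBS-primed cells. For Camp the share of cells with a UMI was 88.1% and 90.5% in strong and 87.5% and 85.7% in weak responders, with medians of 3 and 4 UMIs against 2 and 2. Single cells reached 101 and 124 Camp UMIs among strong and 78 and 63 among weak responders, and the 2 highest weak responders held 53.1% and 54.8% of the weak class's Camp UMIs. In PBS-primed cells of the same batch 7.78% and 11.6% held a Camp UMI, with at most 6 and 4. This low share was not common to both batches. On the PBS-primed plates of batch 6, 65.9% and 54.8% of cells held a Camp UMI, with medians of 1 and 1 and at most 13 and 5. These shares were still below those of weak responders, but by less.

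**Figure D2:**
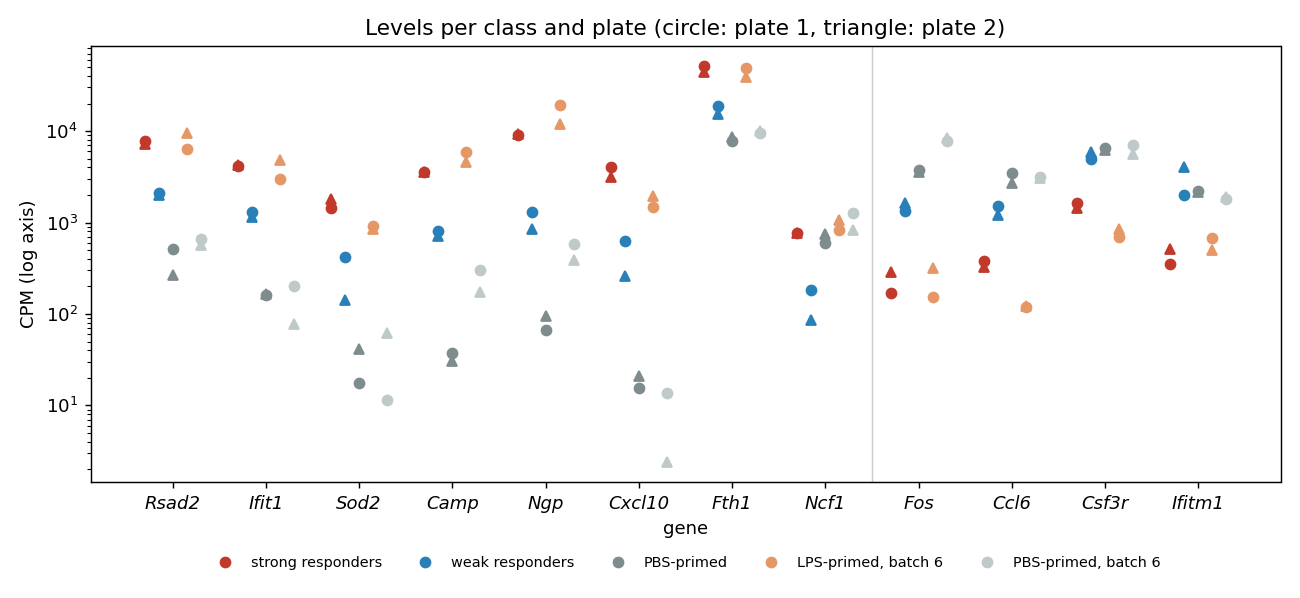
CPM on a log axis for 8 genes higher in strong responders (left of the line) and 4 higher in weak responders, 1 circle for plate 1 and 1 triangle for plate 2 of each class. Orange and light grey marks are the LPS-primed and PBS-primed plates of batch 6. Weak responders lie between the strong responders and the PBS-primed cells of batch 7 for Rsad2, Ifit1, Sod2, Camp, Ngp, Cxcl10, Fth1, Fos, Ccl6 and Csf3r, on both sides of the PBS-primed level for Ifitm1, and below both other groups for Ncf1.

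Because treatment is set by the labels and not by the clusters, all LPS-primed PB cells could be tested against all PBS-primed ones. With edgeR's quasi-likelihood test on summed UMIs of 2 samples a group, Camp rose by 7.59 ± 0.29 (log2 ± SE, adjusted p = 2.96e-07), Ngp by 7.37 ± 0.46 (adjusted p = 5.03e-06), Rsad2 by 4.78 ± 0.50 (adjusted p = 0.000246), Sod2 by 5.88 ± 1.08 (adjusted p = 0.0108) and Ifit1 by 5.5 ± 1.05 (adjusted p = 0.0139). All were higher in 2 of 2 LPS samples. These rises used TMM scaling of sums without thinning, in which deeper cells count for more. Scaled by library size alone, the log2 rise was 6.67 for Camp, 6.44 for Ngp, 3.87 for Rsad2, 4.95 for Sod2 and 4.57 for Ifit1. The samples are plates, and the number of mice behind each is not given. The SE and adjusted p thus measure spread between plates, which may not be spread between animals. Without the first or the second PBS sample the edgeR adjusted p of Sod2 was 0.133 or 0.0975 and that of Ifit1 0.146 or 0.171, while the calls of the other 3 held. Of the 188 genes higher in strong responders 101 passed at an edgeR adjusted p of 0.05 and rose, where 3.41% of the 8590 genes of the fit rose and 0.466% fell (293 and 40 genes, or 140 and 261 when scaled by library size without TMM). Of the 432 higher in weak responders 4 rose and 6 fell, and of the 2418 compared genes 11.4% rose and 0.372% fell. These counts share the LPS-primed cells with the comparison of the classes.

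The 12 genes with the largest difference towards strong responders were Nos2, Chil3, Ngp, Fmnl2, Cxcl10, Ifi209, Pcmt1, Cish, Daxx, AA467197, Irak3 and Xaf1. Cxcl10, an interferon-induced chemokine (NCBIM37, chromosome 5, 92775664 to 92777915), stood at 4000 and 3143 CPM in strong, 621 and 257 CPM in weak and 15.6 and 20.9 CPM in PBS-primed cells. Chil3, a chitinase-like protein, stood at 1424 and 2371, 196 and 246, and 2.22 and 0 CPM. Nos2, the inducible nitric oxide synthase, was rare, at 95.2 and 71.4 CPM from 6 strong responders on each plate, against 4.17 and 0 CPM from 1 and 0 weak responders, at least 4.17-fold higher on plate 2 when a floor of 3 UMIs is set for the weak class.

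Apart from Ngp, the remaining genes of this group reached between 76.2 CPM (Pcmt1, plate 1) and 781 CPM (AA467197, plate 1) in strong responders. Irak3, an inhibitor of Toll-like receptor signalling, was at 419 and 252 CPM against 66.7 and 28.6 CPM in weak responders. Cish, an inhibitor of cytokine signalling induced by STAT5, was at 100 and 186 CPM against 8.33 and 22.9 CPM and was not seen in PBS-primed cells. Xaf1, a pro-apoptotic interferon-induced protein, was at 224 and 443 CPM against 33.3 and 28.6 CPM. In the edgeR test of LPS against PBS, 9 of the 12 genes passed, and Nos2 (adjusted p = 0.0629), Pcmt1 (0.0631) and Xaf1 (0.147) did not. With the PBS-primed samples left out in turn, Fmnl2, Cish, Daxx and Ifi209 also missed the threshold, with edgeR adjusted p between 0.0727 and 0.171.

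Antiviral effectors induced by interferon were graded. Of 32 compared, 12 were higher in strong responders and 1, Ifitm1, in weak responders, and the list's median difference was 1.0 against -0.46 over all genes. The shares over all compared genes, to be set beside this and each later list count, were 7.78% higher in strong and 17.9% in weak responders. Isg20, an exonuclease, was at 3276 and 3510 CPM in strong, 975 and 846 CPM in weak and 198 and 174 CPM in PBS-primed cells. Ifitm3, which blocks viral entry, was at 8310 and 7924, 4004 and 3931, and 1287 and 1340 CPM. Slfn4, a Schlafen family member, was the most abundant at 15114 and 12200, 6158 and 6577, and 1596 and 1423 CPM, 2-fold higher in strong responders on plate 1 only. Against PBS-primed cells, weak responders were at least 2-fold higher in every pair of plates for 18 of the 32, where 5.05% of all compared genes were, and strong responders for 23, where 10.3% were.

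Members of the same list went in different directions. Ifitm1 was at 348 and 514 CPM in strong, 1983 and 4046 CPM in weak and 2209 and 2154 CPM in PBS-primed cells, lowest in the strong responders, in which its relative Ifitm3 was highest. Ifitm2 was at 2124 and 1776, 2279 and 3011, and 1731 and 2030 CPM, and was not 2-fold apart on either plate.

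Guanylate-binding proteins, which attack pathogen vacuoles, and immunity-related GTPases had a list median of 1.6. Of 9 compared, 4 were higher in strong and 0 in weak responders. Gbp2 was at 2238 and 2829 CPM in strong, 758 and 577 CPM in weak and 28.9 and 53.5 CPM in PBS-primed cells. Ifi47 was at 1029 and 1814 CPM, 408 and 91.4 CPM, and 42.2 and 37.2 CPM. Gbp7 did not differ in 1 direction, at 648 and 743 CPM in strong against 542 and 966 CPM in weak responders.

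Among the 6 sensors of nucleic acid compared, 4 were higher in strong responders and 0 in weak. Ifi204, an interferon-inducible DNA sensor, was at 2510 and 2929 CPM against 767 and 1086 CPM, with 113 and 151 CPM in PBS-primed cells. Zbp1, a sensor of Z-form nucleic acid that can start necroptosis, was at 324 and 471 CPM against 33.3 and 137 CPM. The factors that carry the interferon signal differed less: of 14 compared, 3 were higher in strong and 0 in weak responders, with a median of 0.09. Irf7, which amplifies interferon transcription, was at 1362 and 1267 CPM against 533 and 389 CPM, and Usp18, an inhibitor of receptor signalling, at 771 and 829 CPM against 233 and 189 CPM. Stat2, in contrast, was at 381 and 595 CPM in strong and 279 and 509 CPM in weak responders, both above the 22.2 and 44.2 CPM of PBS-primed cells.

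NF-κB targets and feedback regulators had a list median of 1.29, with 9 of 21 compared higher in strong and 0 in weak responders. Nfkbia, the inhibitor IκBα that NF-κB itself induces, was at 3581 and 3210 CPM in strong, 1400 and 531 CPM in weak and 447 and 602 CPM in PBS-primed cells, so that weak responders overlapped the PBS-primed plates. Marcksl1, a regulator of actin, was at 4329 and 3948, 1758 and 1160, and 193 and 242 CPM. Gadd45b, a stress-response gene, was at 767 and 524, 204 and 189, and 93.3 and 191 CPM. Socs3 and Tnfaip2 pointed the other way without reaching 2-fold on both plates, Socs3 with 552 and 300 CPM in strong and 854 and 697 CPM in weak responders.

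Of 10 genes of the Toll-like receptor 4 pathway compared, 3, Cd14, Irak2 and Irak3, were higher in strong and 1, Irak4, in weak responders. Cd14, the LPS co-receptor, was at 1562 and 1852 CPM in strong, 508 and 560 CPM in weak and 64.4 and 97.7 CPM in PBS-primed cells. Myd88 was at 457 and 267 CPM in strong and 454 and 897 CPM in weak responders, with no direction shared by the plates. Tlr4 itself, rare in all classes and named after its values were seen, was at 114 and 38.1 CPM in strong and 45.8 and 131 CPM in weak responders, again with opposite directions on the plates.

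Chemokines showed the largest list median, 2.43, with 5 of 6 compared higher in strong responders. Cxcl2, which attracts neutrophils through CXCR2, was at 1138 and 610 CPM in strong, 283 and 149 CPM in weak and 8.89 and 46.5 CPM in PBS-primed cells. Ccl4 was at 1805 and 3010 CPM against 629 and 274 CPM, and Ccl3 at 957 and 705 CPM against 262 and 80 CPM, both inflammatory chemokines of the CC family. Few cells held these transcripts: Ccl4 was seen in 15 and 21 of 42 strong responders, the 2 highest of which held 66.0% and 49.5% of its UMIs, and in weak responders the 2 highest cells held 83.4% and 60.4%. For Ccl5 the difference came from 5 and 2 strong responders, and the 2 highest cells held 97.1% and 100% of its UMIs. The sixth chemokine, Ccl6, was lower in strong responders: 376 and 329 CPM, against 1508 and 1194 CPM in weak and 3476 and 2716 CPM in PBS-primed cells.

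Among 9 genes compared of the cytokine list, which also holds the enzyme gene Acod1, Il1rn and Acod1 were higher in strong and Tnfsf14 in weak responders. Il1rn, the interleukin-1 receptor antagonist, was at 3471 and 3010 CPM in strong, 1204 and 1280 CPM in weak and 382 and 523 CPM in PBS-primed cells. Acod1, which makes itaconate, was at 1600 and 1090, 446 and 314, and 46.7 and 34.9 CPM. Il1b, the agonist that Il1rn opposes, was not 2-fold apart in summed level: 3195 and 3881 CPM in strong and 4938 and 3954 CPM in weak responders. Its distribution over cells differed, as the median strong responder held 4.5 and 4 UMIs per 5000, the median weak responder 17 and 17, and the median PBS-primed cell 27.5 and 27.5. The 2 highest strong responders held 25% and 41.1% of the class's Il1b UMIs, with up to 96 and 168 UMIs in a cell.

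Secondary and tertiary granule protein genes had a list median of 1.30, and 11 of 21 compared were higher in strong and 0 in weak responders. Lcn2, the siderophore-binding lipocalin, was at 27362 and 25433 CPM in strong, 8400 and 6423 CPM in weak and 1167 and 1216 CPM in PBS-primed cells. Wfdc21 was at 9133 and 8086, 3942 and 3074, and 1260 and 1474 CPM. Mmp8, neutrophil collagenase, differed less, at 5357 and 5814, 3463 and 2954, and 907 and 1209 CPM. Ltf, lactoferrin, named after its values were seen, was at 1533 and 2076 CPM, 425 and 177 CPM, and 2.22 and 4.65 CPM. It held a UMI in 28 and 31 of 42 strong responders and in 19 of 48 and 22 of 35 weak responders. The highest weak responder of plate 1 held 63 thinned UMIs against a median of 0, and that of plate 2 held 4. The low level in PBS-primed cells was not common to both batches. Of these cells 1.11% and 2.33% held an Ltf UMI in batch 7, against 55.7% and 28.6% in batch 6.

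Some members were not higher in strong responders on the CPM scale. Lrg1 was at 2557 and 2738 CPM in strong and 3313 and 4686 CPM in weak responders, and Mmp9, gelatinase B, at 757 and 871 CPM in strong, 1296 and 1023 CPM in weak and 2429 and 2130 CPM in PBS-primed cells. Neither was 2-fold apart, and in UMIs per cell Lrg1 was higher in strong responders on both plates and Mmp9 had opposite directions. The list of azurophil granule proteins, which are made earliest in maturation, could hardly be assessed. Only its members Lyz2 and Serpinb1a, which are not confined to these granules, had enough UMIs to be compared. Neither was 2-fold apart on both plates. Mpo held 0 UMIs per cell in both classes. Lyz2, lysozyme, was at 3862 and 3629 CPM in strong and 5063 and 3697 CPM in weak responders.

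Subunits of the NADPH oxidase, which makes superoxide, were split. Cybb, the catalytic gp91phox, was at 3633 and 2410 CPM in strong, 600 and 520 CPM in weak and 184 and 95.3 CPM in PBS-primed cells. Ncf1, the cytosolic organiser p47phox, was at 767 and 771 CPM in strong, 183 and 85.7 CPM in weak and 602 and 749 CPM in PBS-primed cells, so that weak responders were below both other groups. In batch 6 the LPS-primed plates held 832 and 1068 CPM of Ncf1 and the PBS-primed plates 1286 and 836 CPM, with no low group. Ncf1 reads may be shared with near-identical copies, and how the authors' counting treated them is not given in the sources used here. The other 5 subunits compared did not differ 2-fold on both plates, for example Cyba at 1157 and 1352 CPM in strong and 1350 and 971 CPM in weak responders.

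Iron storage genes went in opposite directions. Fth1, the ferritin heavy chain, was at 51781 and 44295 CPM in strong, 19021 and 15303 CPM in weak and 7713 and 8700 CPM in PBS-primed cells, a difference of 1.49 ± 0.06 (log2, SD, n = 2 plates) between the classes. Ftl1, the light chain, was at 2948 and 2900, 7329 and 6771, and 10113 and 11772 CPM. Both chains have processed pseudogenes, and reads shared with them are uncertain. Prdx5, a mitochondrial and peroxisomal peroxiredoxin, was at 3195 and 3100 CPM against 1325 and 1166 CPM in weak responders, whereas Gsr, glutathione reductase, was at 924 and 1062 CPM against 1958 and 2126 CPM, just short of 2-fold on plate 2. Over the 17 antioxidant and iron genes compared, 4 were higher in strong and 3 in weak responders, against 7.78% and 17.9% of all compared genes.

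Under the same filters, the 12 genes with the largest difference towards weak responders were Tagln2, Tbc1d15, Csf1r, Sycp2, Rassf3, Dck, Myadm, Sephs2, Slc40a1, Rgs2, Ifitm1 and Tgfbi. With another random thinning, the mean log2 difference was -1.55 instead of -2.86 for Sephs2 and -3.06 instead of -2.83 for Rgs2. Tagln2, an actin-binding transgelin, was at 14.3 and 9.52 CPM in strong, 483 and 343 CPM in weak and 133 and 277 CPM in PBS-primed cells, and held a UMI in 2 of 42 strong responders on each plate against 19 of 48 and 13 of 35 weak responders. Rgs2, which shortens G protein signalling, was at 343 and 124, 1958 and 1206, and 2009 and 1826 CPM. Slc40a1, the iron exporter ferroportin, was at 14.3 and 76.2, 383 and 480, and 753 and 581 CPM. Tgfbi, an adhesion protein of the matrix, was at 81.0 and 14.3, 496 and 674, and 684 and 884 CPM.

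For Rgs2, Slc40a1, Tgfbi, Rassf3, Sephs2, Myadm, Tbc1d15, Dck and Ifitm1 the weak responders differed less than 2-fold from the mean of the PBS-primed plates on both plates. The rule for these 12 genes did not use the batch 6 plates, but the clusters that define the classes were made with their cells. Most LPS-primed cells of batch 6 shared the cluster of strong responders and most PBS-primed ones that of weak responders, so the split partly sets this likeness. Batch 6 gave 86.3 and 94.5 CPM of Rgs2 in LPS-primed and 2205 and 1941 CPM in PBS-primed cells, and 48.4 and 44.0 CPM of Slc40a1 against 1048 and 1129 CPM. Summed over the 12 genes, the median LPS-primed cell of batch 6 held 4 and 2 UMIs per 5000. The median strong responder held 4 and 2.5 and the median weak responder 37.5 and 43. The median PBS-primed cell of batch 7 held 39 and 35. The 12 genes were chosen for their difference between strong and weak responders, so the gap between these classes is set by the choice. Most PBS-primed cells of batch 7 shared the cluster of weak responders, so the likeness of these groups is also partly set by the split.

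Immediate early and glucocorticoid-induced genes had the lowest list median, -0.95. Against 7.78% and 17.9% of all compared genes, 0 of 18 were higher in strong and 6 in weak responders. With TMM scaling the median was -0.49 with 1 and 3 such genes, and without scaling -0.18 with 2 and 4. The AP-1 subunit Fos was at 171 and 286 CPM in strong, 1342 and 1629 CPM in weak and 3724 and 3540 CPM in PBS-primed cells. It held a UMI in 19 and 15 of 42 strong responders, in 39 of 48 and 28 of 35 weak responders and in 89 of 90 and 78 of 86 PBS-primed cells. Junb was at 948 and 971 CPM against 2117 and 1749 CPM in weak responders. Dusp1, a phosphatase of MAP kinases, was at 2471 and 2500 CPM in strong, 1700 and 1331 CPM in weak and 3387 and 2456 CPM in PBS-primed cells. Cebpd, a C/EBP factor counted also among the factors of maturation, was at 286 and 257 CPM in strong and 804 and 691 CPM in weak responders.

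Glycolytic genes had a median of -0.86, which turned to 0.21 when UMIs per cell were not scaled to the same total. Of 14 compared, 0 were higher in strong and 4 in weak responders, against 7.78% and 17.9% of all compared genes. Slc2a3, a glucose transporter, was at 52.4 and 71.4 CPM in strong, 338 and 337 CPM in weak and 538 and 593 CPM in PBS-primed cells. Aldoa, aldolase A, was at 286 and 305, 1038 and 680, and 733 and 772 CPM. Pkm, pyruvate kinase, was at 686 and 667 CPM in strong and 1271 and 1297 CPM in weak responders and fell just short of 2-fold. Several of these genes have processed pseudogenes, which makes their counts uncertain.

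Surface receptors of neutrophils went in both directions. Of 35 compared, 6 were higher in strong and 5 in weak responders, against 7.78% and 17.9% of all compared genes. Csf3r, the receptor of granulocyte colony-stimulating factor, was at 1633 and 1452 CPM in strong, 4988 and 5903 CPM in weak and 6578 and 6214 CPM in PBS-primed cells. Cd44, a receptor of hyaluronan, was at 600 and 814, 1925 and 1680, and 1984 and 1870 CPM. Il1r2, the decoy receptor of interleukin-1, was at 2114 and 2367, 1000 and 811, and 298 and 500 CPM. Cxcr2 was at 1386 and 1795 CPM in strong and 2896 and 2360 CPM in weak responders, 2-fold apart on plate 1 only, and Ccr1 at 1419 and 1443 CPM against 1550 and 1651 CPM.

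Class I antigen presentation had a median of 0.87, with 4 of 14 compared higher in strong and 0 in weak responders, among them Psme2, a proteasome activator, at 1033 and 933 CPM against 246 and 337 CPM. Survival and cell death genes had a median of 0.94, with 7 of 20 higher in strong and 0 in weak responders. Birc3, an inhibitor of apoptosis, was at 400 and 343 CPM against 183 and 114 CPM, while Mcl1 was at 1229 and 1076 CPM against 2117 and 1851 CPM. Of 6 coagulation and fibrinolysis genes, Thbs1, thrombospondin-1, was higher in strong responders at 1648 and 2767 CPM against 413 and 143 CPM in weak and 4.44 and 53.5 CPM in PBS-primed cells. Entpd1, the ectonucleotidase CD39, was lower at 28.6 and 61.9 CPM against 346 and 251 CPM.

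Among 26 genes of the actin cytoskeleton 1 was higher in each class, and Actb was at 13019 and 10771 CPM in strong and 11496 and 12103 CPM in weak responders. S100a8 and S100a9, the most abundant transcripts of both classes, differed by 0.21 and 0.22 and by 0.19 and 0.25 on the log2 scale. The nuclear RNA Malat1, named after its values were seen, was at 12538 and 12800 CPM in strong, 29154 and 23989 CPM in weak and 51396 and 46367 CPM in PBS-primed cells. Of the factors of neutrophil maturation 0 of 10 were higher in strong and 1, Cebpd, in weak responders, with a median of -0.68 that turned to 0.24 without scaling. Of the cell cycle list only 2 genes could be compared, and Hmgb2 was at 500 and 362 CPM in strong and 1079 and 863 CPM in weak responders.

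**Figure D3:**
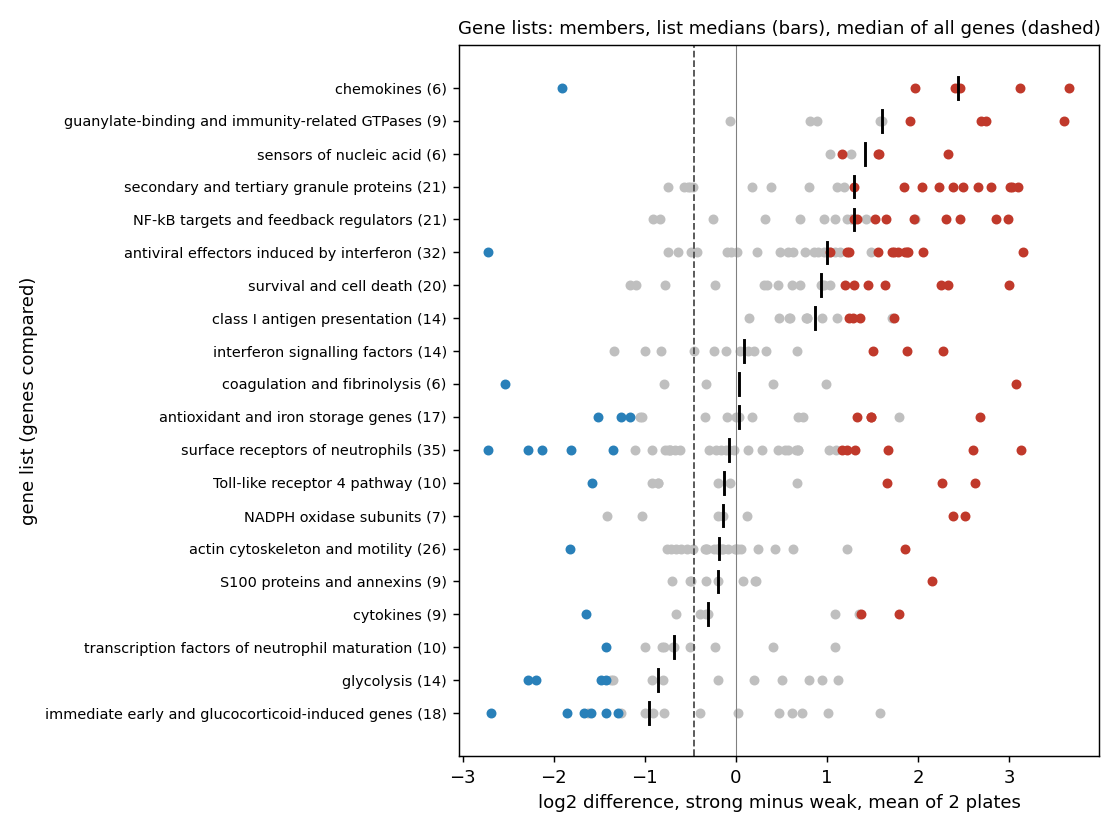
Each row is a gene list with at least 5 genes compared (their number in brackets), each point a gene at its log2 difference between strong and weak responders (mean of 2 plates); red and blue points are genes at least 2-fold higher in strong or weak responders on both plates, black bars the list medians and the dashed line the median of all genes, -0.46. Chemokines lie highest with a median of 2.43 and immediate early genes lowest with -0.95.

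Batch 6 shares no cells with the classes, but the authors clustered both batches together, so the overlaps given here are partly set by the split. There, LPS-primed PB cells were at least 2-fold above PBS-primed ones in every pair of plates for 235 of the 2418 genes (9.72%) and below for 487 (20.1%). Of the 188 genes higher in strong responders 104 (55.3%) were above and 2 below in batch 6, and these 104 made up 44.3% of the 235. Of the 432 genes higher in weak responders 196 (45.4%) were below in batch 6 and 0 above, and these made up 40.2% of the 487. Levels of Rsad2 were 6400 and 9495 CPM in LPS-primed cells of batch 6, on both sides of those of strong responders. Sod2 at 922 and 840 CPM lay below both strong plates, and Ngp at 19474 and 11919 CPM and Chil3 at 4790 and 6141 CPM lay above them.

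For the 105 genes that were higher in strong responders and reached 200 CPM there in both plates, the weak level was 5.15 to 48.2% of the strong one on plate 1, with a median of 30.1%, and 1.24 to 49.6% on plate 2, with a median of 27.0%. The upper end of these ranges is set by the 2-fold rule. Within the 2418 genes, weak responders were at least 2-fold above PBS-primed cells in every pair of plates for 122 genes and below for 76 (3.14%), and strong responders above for 249 and below for 498 (20.6%). These comparisons share the PBS-primed plates.

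Per-cell sums of whole lists placed weak responders between the other groups with overlap. Antiviral transcripts took a median of 299.5 and 253 of 5000 UMIs in strong, 136 and 195 in weak and 60.5 and 68 in PBS-primed cells. Granule protein transcripts took 335 and 343.5, 147 and 131, and 77.5 and 78. Of the 48 and 35 weak responders, 3 and 4 reached the median antiviral sum of strong responders and 1 and 0 their median granule sum. In the other direction, 2 and 9 of 42 strong responders were at or below the weak median for the antiviral sum and 1 and 1 for the granule sum. The NF-κB sum had medians of 55.5 and 50 in strong, 30.5 and 25 in weak and 20 and 20 in PBS-primed cells, and 11 and 3 weak responders reached its strong median.

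Within the strong responders, cells rich in antiviral transcripts were poor in granule protein transcripts. Spearman's rho over cells was -0.81 on plate 1 and -0.41 on plate 2 (42 cells each). The same relation ran through the LPS-primed cells of batch 6, at -0.59 (95 cells) and -0.61 (91 cells). It had no common sign in weak responders, at 0.25 (48 cells) and -0.27 (35 cells), and was 0.20 and 0.13 in PBS-primed cells. In the same strong responders the antiviral sum went with the NF-κB sum, at 0.69 and 0.49, as it did in batch 6, at 0.50 and 0.58. The cells of a plate share a library, both sums are parts of the same 5000 UMIs, and the clustering used these genes, so these values are descriptions.

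Against UMIs per cell, the antiviral sum of strong responders had rho of -0.10 and -0.13, and their granule sum -0.002 on plate 1 and 0.48 on plate 2. In batch 6 the granule sum had 0.37 and 0.33 against UMIs per cell. The antiviral sum went with the authors' ERCC ratio, at 0.57 on both plates of strong responders and 0.46 and 0.56 in LPS-primed cells of batch 6. The part of depth or of this ratio in the relation between the antiviral and granule sums was not tested. In strong responders with the lowest granule sums, 145 and 109 of 5000 UMIs, this list lay within the range of weak responders, and the highest antiviral sums, 632 and 628, lay above the 360 and 332 of the highest weak responders.

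**Figure D4:**
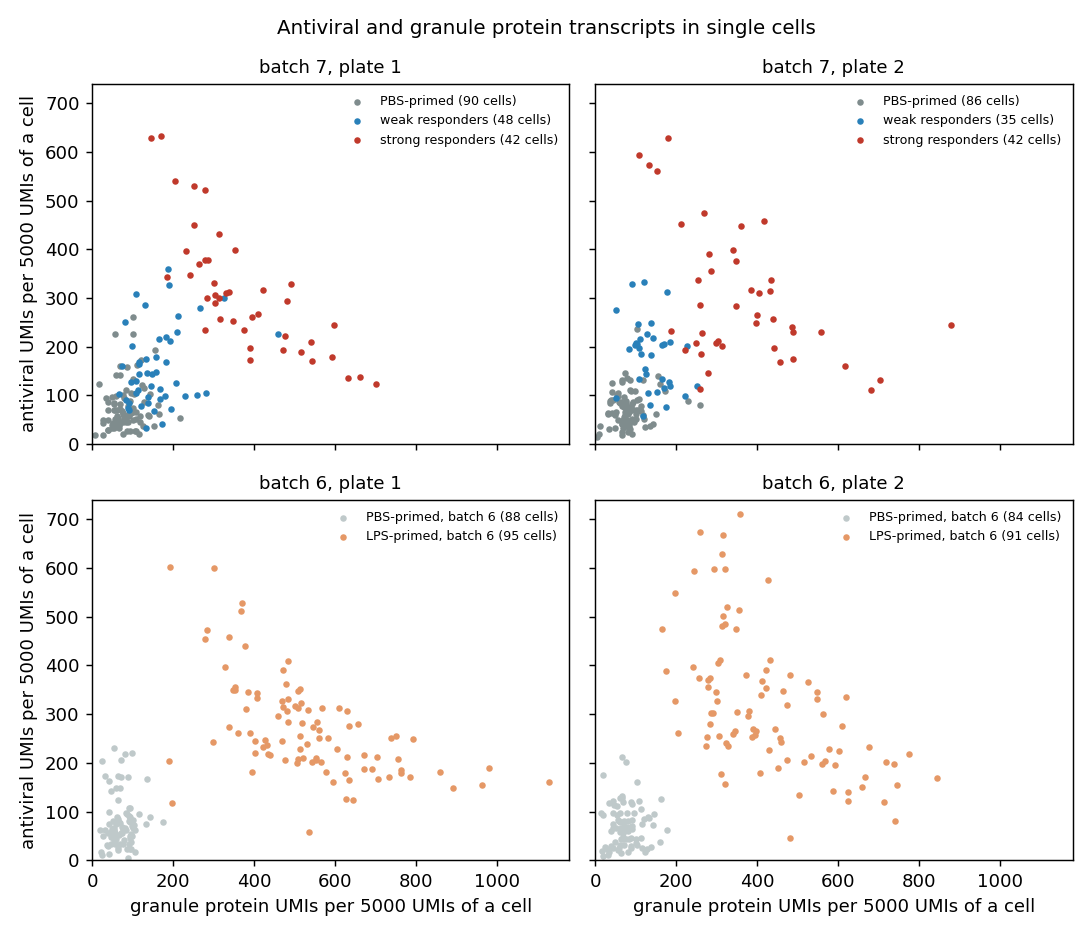
Each point is a cell, with UMIs of secondary and tertiary granule protein genes on the x axis and of antiviral genes on the y axis, both per 5000 UMIs of the cell. Strong responders (upper panels, 42 per plate) and LPS-primed cells of batch 6 (lower panels, 95 and 91) run from the upper left to the lower right, while weak responders lie between them and the PBS-primed cells near the origin.

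Strong responders also held more UMIs per cell, and CPM values compare shares of a cell's RNA. Without scaling, in mean UMIs per cell of the full data, 367 genes were at least 2-fold higher in strong and 151 in weak responders, and 172 of the 188 and 135 of the 432 kept their call. Of the 432 genes 342 still had fewer UMIs per strong than per weak responder on both plates. Csf3r held 111 and 98.9 UMIs per strong and 275 and 277 per weak responder, Ifitm1 26.9 and 34.6 against 84.9 and 190, Fos 9.83 and 24.5 against 71.1 and 73, and Ccl6 26.6 and 18.9 against 84.7 and 74.2. For Slc2a3 the values were 5.07 and 13.4 against 22.7 and 13.5, close together on plate 2. Junb turned, with 84.4 and 73.5 UMIs per strong and 84.0 and 63.9 per weak responder, as did Ifitm2, Ccr1, Lyz2 and Lrg1. The plates had opposite directions for Il1b, Cxcr2, Gsr, Mcl1, Pkm, Aldoa and Mmp9. UMIs per cell depend on capture and sequencing as well as on RNA content.

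Markers of the neutrophil itself were present in both classes, with 0 of 7 higher in strong and only Csf3r higher in weak responders, and Retnlg at 21638 and 25624 CPM in strong and 24779 and 20491 CPM in weak responders. Markers of T, B and NK cells, erythroid cells and eosinophils did not reach the minimum for a comparison. Of 5 monocyte or macrophage markers compared, Csf1r and Cd68 were higher in weak and Ly6c2 and Ctss in strong responders. Csf1r, the receptor of colony-stimulating factor 1, was at 9.52 and 0 CPM in strong, 167 and 571 CPM in weak and 264 and 102 CPM in PBS-primed cells, at least 40-fold higher on plate 2 at the floor of 3 UMIs, and held a UMI in 14 of 48 and 12 of 35 weak responders. The 8 hepatocyte markers summed to 1019 and 1019 CPM in strong, 1567 and 1686 CPM in weak and 1876 and 2805 CPM in PBS-primed cells, were at 0 in batch 6, and 0 of 8 were 2-fold apart between the classes. The part of such transcripts in the results was not tested.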

How the data were processed

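SCRB-seq libraries were made from single picked neutrophils. The submitters' processing notes name cutadapt 1.15, STAR 2.6.0a, HTSeq 0.11.2 and mm9. The deposited values are UMI counts, which the authors had not normalized. The gene annotation and strand setting are not given in the sources used here. The authors' annotation adds clusters, batch, plate and an ERCC ratio, a fraction whose denominator is not stated. Groups came from cell names that match the labelled samples, and 352 cell columns were used in no step.

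Each cell was thinned to 5000 UMIs, classes were summed per plate, and genes with at least 10 UMIs over both classes in each plate were compared on log2(CPM + 10). A call needs 2-fold in both plates. Sample sums range from 3240559 to 8361677 UMIs. LPS-primed and PBS-primed PB samples were tested with edgeR 4.0.16 (TMM, filterByExpr, quasi-likelihood F test, two-sided, Benjamini-Hochberg) in 1 model of all 8 samples of batch 7, with R 4.3.3 and numpy 2.4.6. DESeq2 1.42.0 was an alternative. Scripts were tested on simulated data. Named genes are the 12 per direction with the largest smaller-of-2-plates difference, at least 50 CPM and at most 50% of UMIs in the 2 highest cells, the 5 markers and up to 6 abundant members of each list. Members and lists were chosen with earlier results of these data known. Doublets were not called, as cells were picked singly. The labels' replicate numbers may stand for batches, in which case both samples of a group would be plates of 1 replicate.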

Additional observations from a re-analysis of the deposited data

Results flagged for a closer look

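Ccdc80, Irf3 and Ubr3 were at least 2-fold higher in weak responders than in PBS-primed cells and at least 2-fold lower in strong responders than in PBS-primed cells, in every pair of plates. The weak effect exceeded the strong effect by 4.34 for Ccdc80, 2.6 for Irf3 and 3.65 for Ubr3 on the log2 scale, and the difference was not tested. All rest on few cells: on plate 2 a UMI was seen in 6, 3 and 3 of 35 weak responders, and the 2 highest of these held 64.1%, 91.7% and 96% of the UMIs.

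Granule protein transcripts were above the PBS-primed level in the 9 LPS-primed PB cells of plate 2 that belong to neither class. There, Ngp was at 3756 CPM, Camp at 2733 CPM and Ltf at 1111 CPM, against 95.3, 30.2 and 4.65 CPM in the PBS-primed cells of plate 2. Most of this came from single cells: the highest held 130 Ngp, 108 Camp and 45 Ltf UMIs per 5000, against medians of 6, 2 and 1, and Ltf was seen in 5 of the 9 cells. The 1 such cell of plate 1 held 4200 CPM of Ngp and 0 CPM of Camp and Ltf. Rsad2 in the 9 cells of plate 2 was at 1156 CPM, below both classes of responders.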

How the results depend on the processing

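The markers Rsad2, Ifit1, Sod2, Camp and Ngp kept all 5 calls under 6 of 7 alternatives, and 4 of 5 in sums without thinning, where Rsad2 was 0.99 higher on the log2 scale on plate 1 and 1.90 on plate 2. Leaving out a plate is not counted there, since a gene called on both plates then keeps its call. Genes higher in strong and in weak responders numbered 296 and 232 with TMM scaling, 104 and 125 with a minimum of 50 UMIs, 42 and 96 at 4-fold, and 554 and 1147 with no minimum fold. They were 342 to 452 and 775 to 859 when 1 plate was left out, since a call then needs only the other plate. With a pseudocount of 50 CPM 191, and with no count minimum 741, genes were higher in weak responders. Of 2 alternatives chosen after the data were seen, requiring a spread over more than 2 cells gave 115 and 138 genes, and UMIs per cell without scaling gave 367 and 151. For 28 single genes (the markers and the 12 with the largest difference in each direction), 9 alternatives that leave out unscaled UMIs per cell, the count minimum and the fold gave 252 values, of which 185 moved by less than the SD between plates and 67 by more, and 0 changed sign. All values with a plate left out are among the 185. They stay within that SD and keep their sign by construction, so these counts overstate the stability. The LPS test called 333 genes (293 up, 40 down), 1055 with DESeq2, and 153 to 404 when 1 PB sample was left out, 153 and 173 of them without either PBS sample, whose group then has a lone sample assumed to vary like the others. With library size alone it called 401, of which 140 were up and 261 down. With the replicate number as a block it called 373 genes, 321 of them shared with the unblocked fit. Deviations of samples with the same number did not move together (correlations from -0.03 to 0.007 over 6 pairs of groups), so the pairing rests on a number only. Depth limits rare genes most: 3 UMIs are worth 14.3 CPM in a class of 42 cells.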
